A study of Arabidopsis thaliana with 12 samples.

Results

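The genes described here had a higher signal in 2C nuclei of the Arabidopsis root cortex than in nuclei of any larger DNA content, and nearly the same signal in the 4C, 8C and 16C classes. They were found among 13513 probe sets that the platform's table pairs with a single gene, which stand for 13355 genes. A probe set was taken when its lowest 2C array lay above the highest of the 9 other arrays and its 4C, 8C and 16C class means lay within 0.4 of each other on the log2 scale. This held for 257 probe sets (1.9%), while in 3.48% the 2C arrays lay above all others whatever the spread of the other classes, and the 150 with the widest gap were kept. The gap is the 2C mean minus the mean of the next highest class. The 150 probe sets stand for 149 genes, because AT5G39785 is measured by 2 of them. Because the signals themselves chose these genes, their 2C values are a description and carry no test.

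The nuclei came from roots of 5-day-old Col-0 plants grown in continuous light. All plants carried pCO2:YFP-H2B, a histone H2B fused to yellow fluorescent protein driven by the CO2 promoter, which is active in the cortex. Root pieces of many plants were combined, and fluorescent nuclei were sorted into 2C, 4C, 8C and 16C classes, with 3 ATH1 arrays per class and 12 in all. The arrays of a class are called biological replicates in the labels, which do not say whether they came from separate plants or sorts, so that every p-value below measures only the spread between these samples. About 200000 nuclei per class gave the RNA, of which 45 to 100 ng went through 2 rounds of amplification. The promoter defines the sorted nuclei, and the classes are defined by DNA content alone: 2C nuclei can come from dividing cells or from cells that have stopped dividing, and 4C nuclei can belong to cells about to divide or to cells in the endocycle.

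In a dividing cell, DNA replication takes a nucleus of 2C to 4C and mitosis returns it to 2C. In the endocycle, replication is repeated without mitosis, and 8C and 16C nuclei arise in this way while cortex cells enlarge. Genes of replication are used in both cycles, whereas genes high only in 2C nuclei are those whose signal is lower already at 4C and stays near that level at 8C and 16C.

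The gap of the 150 probe sets had a median of 0.51 on the log2 scale, which is 1.42-fold, and ranged between 0.36 (1.28-fold) and 1.60 (3.03-fold). It was at least 0.5 in 78 probe sets and at least 1 in 7. In nuclear RNA of sorted pools, fewer nuclei of one kind and less RNA per nucleus cannot be told apart, and this applies to every value below. The distance between the lowest 2C array and the highest other array was smaller than the gap, with a median of 0.14. It was at least 0.5 in 5 probe sets, those of PWD (here AT4G24450), AT4G26370, ZYP1b, orfX and nad4L, and it was below 0.1 in 48. In AT5G22280 it was 0.00078, with 2C signals of 5.57, 5.29 and 5.61 and a highest other array of 5.29. Both distances are thus wide for a few genes and narrow for many members.

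**Figure D1:**
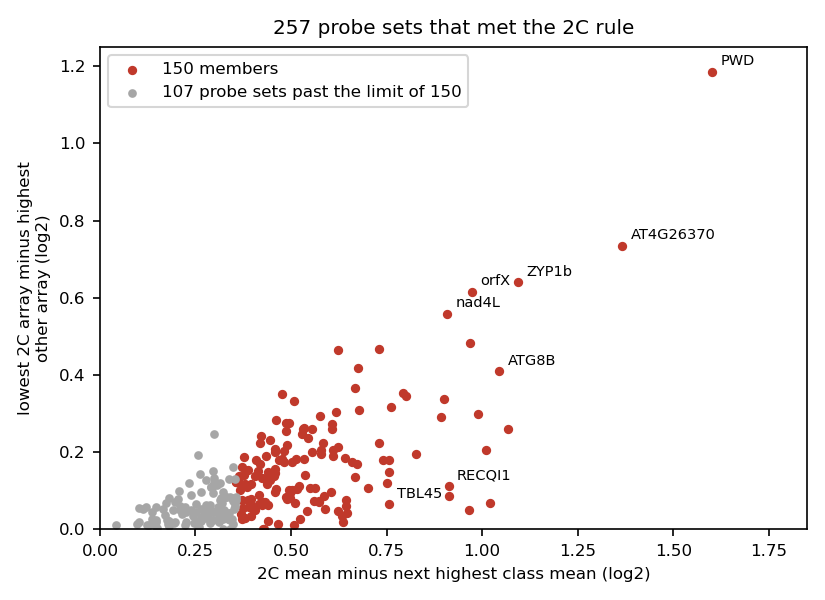
Each point is 1 of the 257 probe sets that met the 2C rule. The x axis gives the 2C mean minus the next highest class mean and the y axis gives the lowest 2C array minus the highest other array, both on the log2 scale. Red points are the 150 members and grey points the 107 others. PWD (AT4G24450) lies farthest from the rest at 1.60 and 1.19, and most members lie below 0.5 on the y axis.

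The limit of 150 fell where neighbours hardly differed. The last members were AT2G32450, AT1G51570 and AT1G52590, with gaps of 0.363, 0.357 and 0.356. The first probe sets left out were those of AT3G62810, PAHX and AT5G58210, with gaps of 0.355, 0.355 and 0.354. At the other limit, the 4C, 8C and 16C means of AT4G23860 lay 0.398 apart and those of AT1G05150 0.396 apart, just inside 0.4. MOL1, with 0.4004, and POLA3, with 0.401, fell just outside it, although the gap of POLA3, a subunit gene of the primase and DNA polymerase that starts new strands, was 1.78 and wider than that of any member. POLA3 is therefore no member although it was highest in 2C.

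The same rule applied to the other classes gave 57 probe sets high only in 4C, 330 high only in 8C and 128 high only in 16C, beside the 257 of 2C. The rule for a class that was lower than all others gave 334 probe sets for 2C, 105 for 4C, 90 for 8C and 84 for 16C. Gaps of at least 1 were few in every class, with 7 probe sets high in 2C, 3 at 4C, 2 at 8C and 6 at 16C. For 2C, more probe sets were thus low than high, and the high ones had the wider median gap, 0.39 against 0.21 on the log2 scale.

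In a linear model over all 12 arrays (limma, Benjamini-Hochberg over 22746 probe sets, threshold 0.05), 2C was compared with the mean of the 3 other classes. It called 9.32% of all probe sets higher in 2C and 6.75% lower. It called 145 of the 150 members higher, a count that the choice of members fixes and that carries no further information. The 5 not called were TBL45, AT1G52540, AT4G17370, AT2G34750 and AT3G57170. Between 2C and the mean of the other classes the members differed by 1.3-fold to 3.26-fold, with a median of 1.55-fold.

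The widest gap belonged to PWD (AT4G24450), which the gene table lists as a water dikinase, a family of enzymes that attach phosphate to starch. The table gives the symbol PWD to AT5G26570 as well, and lists AT4G24450 also as ATGWD2. In this report and its figures PWD without a locus means AT4G24450, and its values are not those of AT5G26570. Its log2 signal was 5.997, 5.70 and 5.42 in the 2C arrays, and the 9 other arrays had a lowest value of 3.75, a median of 3.98 and a highest of 4.23. The class means were 5.70 ± 0.29 in 2C, 4.103 ± 0.13 at 4C, 3.88 ± 0.10 at 8C and 4.01 ± 0.24 at 16C (SD, n = 3 each). No 2C array came near the range of the others, and the gap was 1.60 on the log2 scale, or 3.03-fold. A second gene of the same symbol, AT5G26570, is no member and can be tested. It averaged 7.08 ± 0.53 in 2C, 6.24 ± 0.31 at 4C, 5.87 ± 0.31 at 8C and 5.60 ± 0.47 at 16C (SD, n = 3 each). It was higher in 2C than in the other classes by 1.18 ± 0.25 on the log2 scale (SE, limma adjusted p = 0.011). Without 2C replicate 1 the adjusted p was 0.0538.

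AT4G26370 followed, with 2C signals of 7.43, 7.70 and 7.35. Its other arrays reached from 5.34 over a median of 5.93 to 6.61, and the gap was 1.37 on the log2 scale (2.58-fold). The 2C arrays agree within an SD of 0.19, whereas the SD was 0.60 among the 4C arrays and 0.70 among the 16C arrays. Both probe sets of AT5G39785 are members. The first had 5.21, 5.58 and 5.07 in 2C against 3.84, 4.02 and 4.81 as the lowest, median and highest of the others, a gap of 1.07. The second had 6.48, 7.08 and 7.27 in 2C against 5.45, 5.89 and 6.27, a gap of 1.01. The order of the 3 2C arrays differed between these probe sets of one gene, while neither overlapped the other classes.

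Further locus codes with a gap near 1 were AT5G40910, AT1G76170, AT5G54090, AT5G39410 and AT4G13990. The first had 9.29, 9.87 and 8.98 in 2C, and the others 7.61, 8.18 and 8.91 as lowest, median and highest. For AT1G76170 the 2C arrays read 8.07, 8.36 and 7.68, and the other arrays 6.45, 6.99 and 7.38. AT5G54090 had 8.20, 8.65 and 8.26 in 2C and 6.97, 7.39 and 7.72 elsewhere. These 3 had their highest 2C value in replicate 2. AT5G39410 had 7.35, 6.28 and 7.08 in 2C and 5.47, 5.82 and 6.23 elsewhere, so that its second 2C array was only just above the rest. For AT4G13990 the gap of 0.91 came mainly from 1 array, since its 2C signals were 7.55, 6.06 and 5.75 against 5.11, 5.36 and 5.66 elsewhere.

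**Figure D2:**
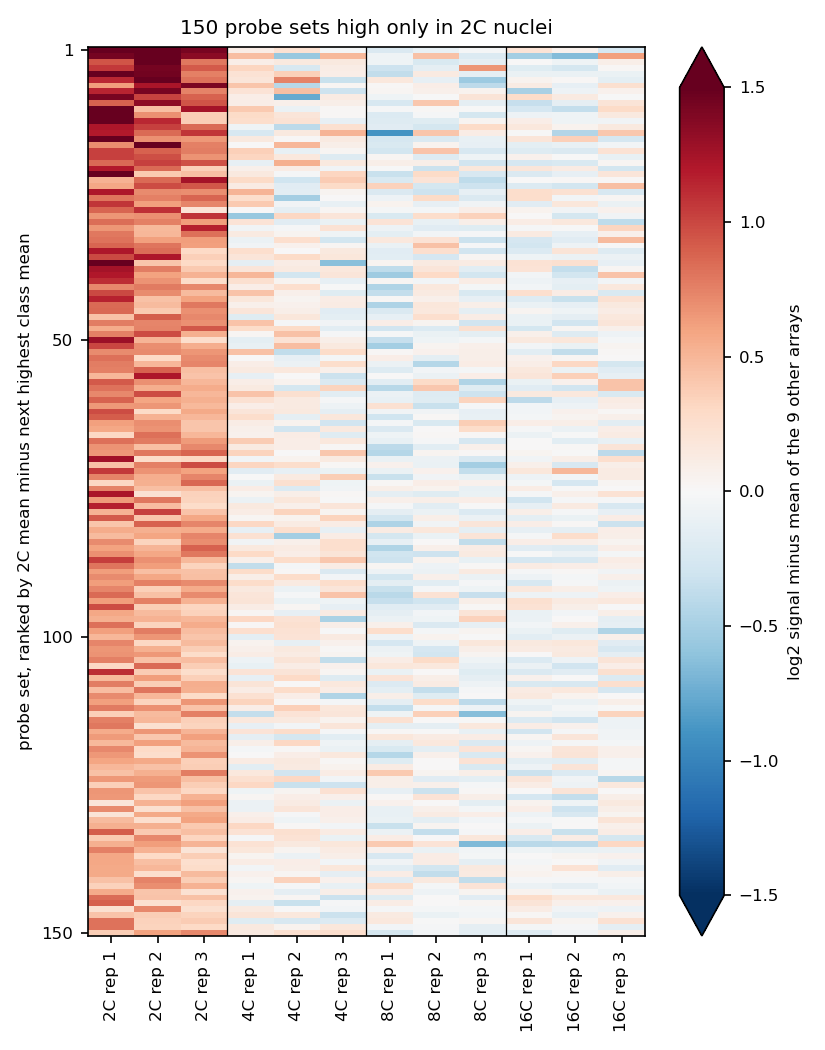
The heat map shows the 150 probe sets as rows, ranked by the 2C mean minus the next highest class mean, and the 12 arrays as columns with the 2C arrays at the left. Colour gives the log2 signal minus the mean of the 9 other arrays, red above and blue below, and is capped at 1.5. The 3 columns of 2C are red in every row and the 9 others stay pale, with 2C replicate 1 the darkest more often than replicates 2 and 3.

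The gene tables give 33 of the members a symbol, and 117 are known here only by a locus code. The 33 are described below by what their products do, with 3 values for the 2C arrays in the order of the replicates and then the lowest, median and highest of the 9 other arrays. These groups were put together after the members were known, and no group was tested for being over-represented.

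Several members act on DNA and chromatin. ZYP1b, which encodes a protein of the synaptonemal complex that holds paired chromosomes together in meiosis, had 5.12, 6.11 and 4.96 in 2C against 3.95, 4.18 and 4.32 as the lowest, median and highest of the others. The gap was 1.1 (2.14-fold), and the 2C SD of 0.62 was larger than that of 4C, 8C or 16C, which was at most 0.08. RECQI1, a helicase of the RecQ family that unwinds DNA, had 5.79, 5.34 and 4.57 in 2C against 4.01, 4.14 and 4.46, with a gap of 0.91. 2C replicate 3 of RECQI1 was thus close to the highest 4C array. Of the other RecQ genes, RECQ4B differed by 0.39 between 2C and the rest (limma adjusted p = 0.0857), and neither RECQ4A nor RECQSIM passed the test.

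HON4, which the table lists as a histone H1 gene, had 8.65, 8.06 and 7.97 in 2C against 6.92, 7.41 and 7.96, a gap of 0.64 with almost no distance between the closest arrays. SHL1, a chromatin protein that reads histone marks, had 5.91, 5.44 and 5.74 in 2C against 4.83, 5.09 and 5.24, a gap of 0.61. RAD4 is the counterpart of a yeast protein that recognises DNA damage for nucleotide excision repair. It had 9.11, 9.20 and 8.95 in 2C against 8.24, 8.53 and 8.81, a gap of 0.54. The chromatin remodelling ATPase INO80 had 10.32, 10.05 and 9.92 in 2C against 9.27, 9.56 and 9.79, a gap of 0.42. ETL1, listed also as CHROMATIN REMODELING 19, had 9.16, 9.10 and 9.06 against 8.41, 8.75 and 8.92, a gap of 0.37 (1.29-fold). The 2C arrays of ETL1 and RAD4 lay close together, and those of HON4 and INO80 were highest in replicate 1.

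Genes of transcript synthesis and splicing were NRPB6A, a subunit of RNA polymerase, and PRP39-2, named for a yeast splicing factor. NRPB6A had 8.55, 9.02 and 8.87 in 2C against 7.67, 8.23 and 8.45 elsewhere (gap 0.49), and PRP39-2 had 4.51, 4.73 and 5.06 in 2C against 3.94, 4.22 and 4.44 (gap 0.51). Neither overlapped the other classes, but their lowest 2C arrays were only 0.10 and 0.068 above the highest other array.

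By name, 8 of the 33 symbols stand for mitochondrial proteins, a count that was not set against all symbols. Products of nuclear genes were FDH, MPPBETA, FRO1 and PPR336. FDH, the mitochondrial formate dehydrogenase, had 8.61, 8.26 and 8.49 in 2C against 6.51, 7.52 and 7.92 (gap 0.90, 1.87-fold), with a wide spread among the 8C arrays (SD 0.69). FRO1, listed as FROSTBITE1, is a subunit gene of respiratory complex I and had 7.37, 6.59 and 6.35 in 2C against 5.74, 6.06 and 6.30 (gap 0.59). MPPBETA, a subunit of the peptidase that removes import signals from mitochondrial proteins, had 9.88, 9.70 and 9.41 in 2C against 8.71, 9.11 and 9.21 (gap 0.48). PPR336, a pentatricopeptide repeat protein, had 4.78, 4.65 and 4.44 in 2C against 4.06, 4.17 and 4.30 (gap 0.38). In FRO1, MPPBETA and PPR336 the 2C arrays had the same order, with replicate 1 highest.

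The other 4 bear names of genes of the mitochondrial genome. The probe set of nad4L, another complex I subunit, had 6.61, 6.43 and 6.25 in 2C against 5.01, 5.46 and 5.70, a gap of 0.91 (1.88-fold). The one named orfX had 8.47, 8.05 and 7.93 in 2C against 6.29, 7.14 and 7.31 (gap 0.97). For matR, which encodes a maturase that helps introns to splice, the signals were 5.34, 4.73 and 4.68 in 2C against 4.18, 4.37 and 4.57 (gap 0.46). Cytochrome c assembly involves ccb452, which had 5.62, 5.74 and 5.88 in 2C against 4.64, 5.24 and 5.40 (gap 0.49). All 4 kept the 2C arrays above the rest, and ccb452 was the one with its highest value in replicate 3. The probe sets of orfX, matR and ccb452 are of a type that similar transcripts share, so their signals may not come from 1 gene. The names orfX and ccb452 were not matched to the gene table and are not in the list of organelle genes used below.

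Protein turnover and autophagy were represented by 5 members. ATG8B and ATG8C encode ubiquitin-like proteins that are attached to the membrane of the autophagosome. ATG8B had 10.997, 10.86 and 10.17 in 2C against 9.04, 9.31 and 9.76 elsewhere, a gap of 1.05 (2.06-fold). ATG8C had 8.57, 8.17 and 8.17 in 2C against 7.41, 7.76 and 8.01, a gap of 0.37. The 5 further ATG8 genes measured were tested and none passed, as 2C minus the other classes was 0.43 for ATG8D (limma adjusted p = 0.194), 0.19 for ATG8E (0.431), 0.16 for ATG8F (0.518), -0.02 for ATG8H (0.967) and -0.03 for ATG8G (0.826). The ubiquitin-conjugating enzyme UBC28 had 9.88, 9.66 and 9.93 in 2C against 8.82, 9.23 and 9.40 (gap 0.53). OS9, which serves in the disposal of misfolded proteins of the endoplasmic reticulum, had 5.70, 5.24 and 5.44 in 2C against 4.69, 5.08 and 5.19 (gap 0.39). The protease inhibitor SERPIN1 had 7.57, 7.67 and 7.89 in 2C against 6.81, 7.17 and 7.52 (gap 0.41). For OS9 and SERPIN1 the closest arrays were within 0.1 of each other.

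Hormone and transcription factor genes had gaps between 0.37 and 0.67. BRL1, a receptor of brassinosteroids, had 4.76, 4.48 and 4.80 in 2C against 3.83, 3.95 and 4.11 elsewhere (gap 0.67, 1.59-fold). RTE1, which acts with an ethylene receptor, had 7.51, 7.10 and 7.37 in 2C against 6.26, 6.65 and 7.09 (gap 0.46). Among the transcription factors, MYBC1 had 7.09, 7.28 and 7.46 in 2C against 6.25, 6.56 and 6.82 (gap 0.61). BRL1 and MYBC1 were clear of the other classes by more than 0.2, RTE1 only just. The bHLH factor SPT had 4.40, 4.72 and 4.94 in 2C against 3.45, 4.03 and 4.29 (gap 0.52). MYC4, a bHLH factor of the jasmonate response, had 5.37, 4.71 and 4.79 in 2C against 4.14, 4.51 and 4.67 (gap 0.37). In none of these 5 were the closest arrays as much as 0.5 apart.

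The remaining symbols belong to the cell wall, secretion and metabolism. TBL45, of a family that acetylates wall polysaccharides, had 6.75, 5.25 and 5.31 in 2C against 4.52, 4.85 and 5.19, and its gap of 0.76 was smaller than its 2C SD of 0.85. UGT78D2, which adds glucose to flavonoids, had 7.65, 7.68 and 8.08 in 2C against 6.43, 7.01 and 7.35 (gap 0.68). EXO84B, a subunit of the exocyst that tethers secretory vesicles, had 6.16, 6.13 and 6.16 in 2C against 5.46, 5.48 and 5.86 (gap 0.49). With an SD of 0.02, the 2C arrays of EXO84B were among the closest of all members. AN, known for its part in the shape of leaf cells, had 7.19, 7.00 and 7.18 in 2C against 6.12, 6.41 and 6.81 (gap 0.51). RD2, first named for its response to drying, had 10.46, 10.12 and 9.62 in 2C against 8.95, 9.34 and 9.44 (gap 0.76).

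**Figure D3:**
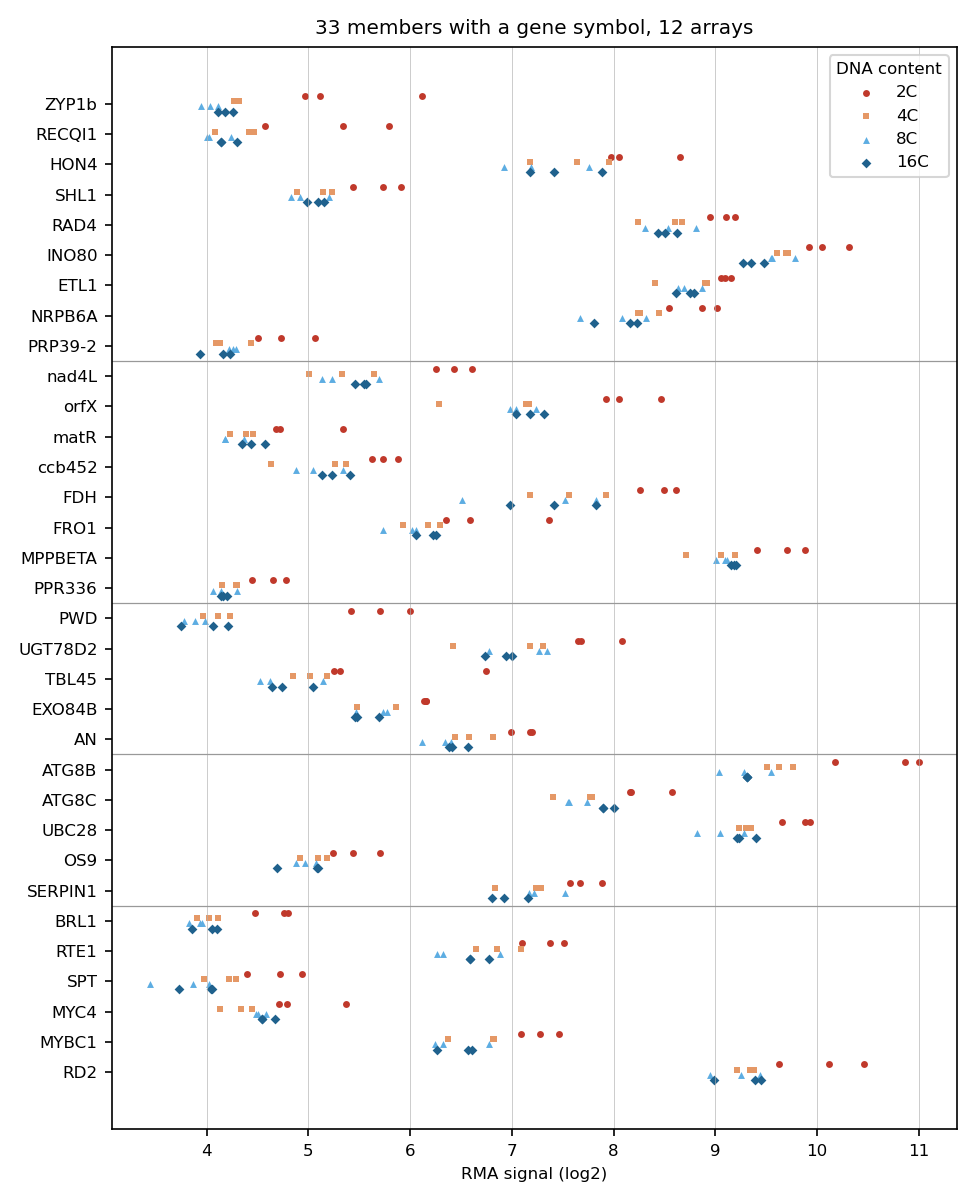
Each row is a member with a symbol and each mark an array, with the RMA signal on the x axis (log2). Marks of 2C, 4C, 8C and 16C are stacked from top to bottom in a row and lines part the groups, which are DNA, chromatin and transcripts, mitochondria, metabolism, wall and cell shape, protein turnover, and hormones and other factors. In every row the 2C marks lie right of all others, by a wide distance for PWD, ZYP1b and nad4L and barely for HON4, RTE1 and MYC4.

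Among the members the replicates of 2C were less alike than those of the other classes. The median SD of the 150 was 0.21 in 2C, 0.16 at 4C, 0.17 at 8C and 0.14 at 16C, against 0.18, 0.17, 0.15 and 0.12 over all single-gene probe sets. The SD of 2C was the largest of the 4 in 66 members (44.0%), and in 37.7% of all single-gene probe sets. It was widest in AT4G13990 (0.96), TBL45 (0.85) and AT1G52540 (0.70) and narrowest in EXO84B, AT4G28480 (0.02 each) and AT5G46070 (0.03). In AT4G28480 the 2C signals were 6.68, 6.67 and 6.64 against 5.66, 6.07 and 6.49 elsewhere, so here the other classes supplied the spread. The SD exceeded the gap in 6 members, AT4G13990, TBL45, AT1G52540, AT4G31450, AT3G59670 and AT4G09520, and each of them was highest in 2C replicate 1.

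2C replicate 1 was the highest of the 2C arrays in 88 members, replicate 2 in 40 and replicate 3 in 22. Over all single-gene probe sets these shares were 34.0%, 31.9% and 34.1%, so the members leaned toward replicate 1 and all probe sets together did not. The lean was not particular to the members, since replicate 1 was also the highest 2C array in 69 of the 80 organelle genes described below. Replicate 3 was the lowest in 80 members. The mean over all 150 was 6.83, 6.69 and 6.60 in the 2C arrays, 6.13, 6.09 and 6.06 at 4C, 5.92, 6.02 and 5.98 at 8C, and 5.999, 5.99 and 6.05 at 16C. Below 2C, the classes were not exchangeable either. The next highest class was 4C in 93 members, 16C in 36 and 8C in 21, and the lowest single array was 8C replicate 1 in 42 members. Most members thus had 4C as the next highest class, within the limit of 0.4 that the rule sets. This order was not particular to the members, since 22 of the 23 list genes described below had it too.

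Members were spread over weak and strong signals. In 60 of them the mean of the 9 other arrays lay below 5.34, the median signal over all probe sets, and in 33 the 2C mean did too. Of all single-gene probe sets, 55.6% had a mean over the 12 arrays below 5.34. The same mean had a median of 5.92 among the members, which were thus brighter than most probe sets. No detection call goes with these values, so a low signal may be background. Genes of the members spanned a median of 2613 bp, against 2117 bp for all single-gene probe sets, counted over the 146 members with a place in the gene table. Probe sets of a type shared by similar transcripts numbered 3 (2.00%, against 2.09% of all single-gene probe sets), those of orfX, matR and ccb452.

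Some members neighbour each other on the chromosome. In 3 pairs no protein-coding gene lies between them, which are AT5G65750 with AT5G65760, AT3G23300 with AT3G23310, and AT1G19330 with AT1G19340. In the first pair the 2C arrays of each gene lay close together, at 7.30, 7.25 and 7.37 for AT5G65750 and 8.31, 8.36 and 8.31 for AT5G65760. Their other arrays were 5.98, 6.49 and 6.78 and 7.13, 7.58 and 7.84 as lowest, median and highest, and the gaps were 0.73 and 0.62. In none of these 3 pairs did the 2C arrays of both genes run in the same order. One gene lies between RAD4 and AT5G16650 and between INO80 and AT3G57320, and 2 between AT4G37180 and AT4G37210. The gene AT5G22700 has a second probe set that is no member. That probe set averaged 8.29 in 2C, 7.71 at 4C, 7.33 at 8C and 7.23 at 16C, and its 2C and other arrays overlapped.

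Gene lists of the root and the cell cycle held few of the members. Of 21 lists, 19 had a measured gene, and 3 members belonged to any: PWD to the starch list, and nad4L and matR to the list of organelle genes. Over all probe sets 9.32% were called higher in 2C and 6.75% lower. The counts of calls in each list stand beside these shares, and no list was tested. On the list of DNA replication, 3 of 5 measured genes rose in 2C and 2 did not pass, with a median of 1.36 on the log2 scale against -0.04 over all probe sets. PRL, listed also as MCM7, a subunit of the helicase that opens DNA for replication, was higher in 2C by 2.78 ± 0.23 (SE, limma adjusted p = 0.000117), at 7.68 ± 0.73 in 2C, 5.52 ± 0.13 in 4C, 4.30 ± 0.03 at 8C and 4.88 ± 0.17 at 16C (SD, n = 3 each). POLA3 was higher by 1.96 ± 0.26 (limma adjusted p = 0.00114). Of 12 measured histone genes 6 rose and 6 did not pass, with a median of 0.74. Among those that rose, HTB4, a histone H2B gene, differed by 0.79 ± 0.16 (SE, limma adjusted p = 0.00886). None of the 4 measured genes of G2 and mitosis and neither of the 2 endocycle regulators passed.

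Many of these list genes were not flat across 4C, 8C and 16C. From 8C to 16C the mean rose in some, such as PRL and HTB4, and fell in others, such as AT5G26570 and LBD16. Apart from organelle genes, 23 list genes that are no members rose in 2C, and for 22 of them 4C was the next highest class. In 12 of the 23 every 2C array lay above all others, and the distance of 0.401 to 2.75 between their 4C, 8C and 16C means is what kept them from being members by the rule.

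On the starch list all 4 measured genes had a positive difference, with a median of 1.44. The list name PWD was matched to both AT4G24450 and AT5G26570, and the median includes the member AT4G24450, whose difference its choice fixes. Of these 4 genes 3 were called higher, PWD at AT4G24450 among them by its choice, and DPE1, an enzyme that rearranges the glucose chains released from starch, was higher by 2.58 ± 0.26 on the log2 scale (SE, limma adjusted p = 0.00029). On the list of expansins and xyloglucan enzymes, which loosen or remodel the wall, 3 of 28 rose, 2 fell and 23 did not pass, with a median of -0.085. Over all probe sets 9.32% rose and 6.75% fell, so these counts are no result about the family. EXLB1 was the strongest of these genes, higher by 2.42 ± 0.22 (limma adjusted p = 0.000183). Of 10 defensin-like genes 2 rose, LCR69 by 3.86 ± 0.36 (limma adjusted p = 0.000186) and LCR68 by 2.28 ± 0.62 (limma adjusted p = 0.0322, and 0.0696 with array weights, 0.15 without 2C replicate 1, 0.0856 without 2C replicate 2, and 0.0511 and 0.0512 without 8C replicate 1 or 2).

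Of 15 tetraspanins, which are membrane proteins, 3 rose and 12 did not pass, with a median of -0.12. TET5 differed by 2.29 ± 0.18 (SE, limma adjusted p = 9.7e-05) and TET6 by 1.83 ± 0.19 (limma adjusted p = 0.000375). Of 22 beta-glucosidase genes BGLU44 rose by 2.64 ± 0.20 (limma adjusted p = 9.7e-05), BGLU45 fell by 1.63 (limma adjusted p = 0.00329), and 20 did not pass. The median of the 22 was -0.10. LBD16, a transcription factor of the auxin response, rose by 1.4 ± 0.26 (limma adjusted p = 0.00579) as the single call among 5 auxin genes. Of 5 nucleolus genes 1 fell, AT3G15460, by 0.51 (limma adjusted p = 0.0153, and 0.0684 and 0.0505 without 2C replicate 2 or 3). None of the 3 stress genes or the 2 photosynthesis genes passed.

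**Figure D4:**
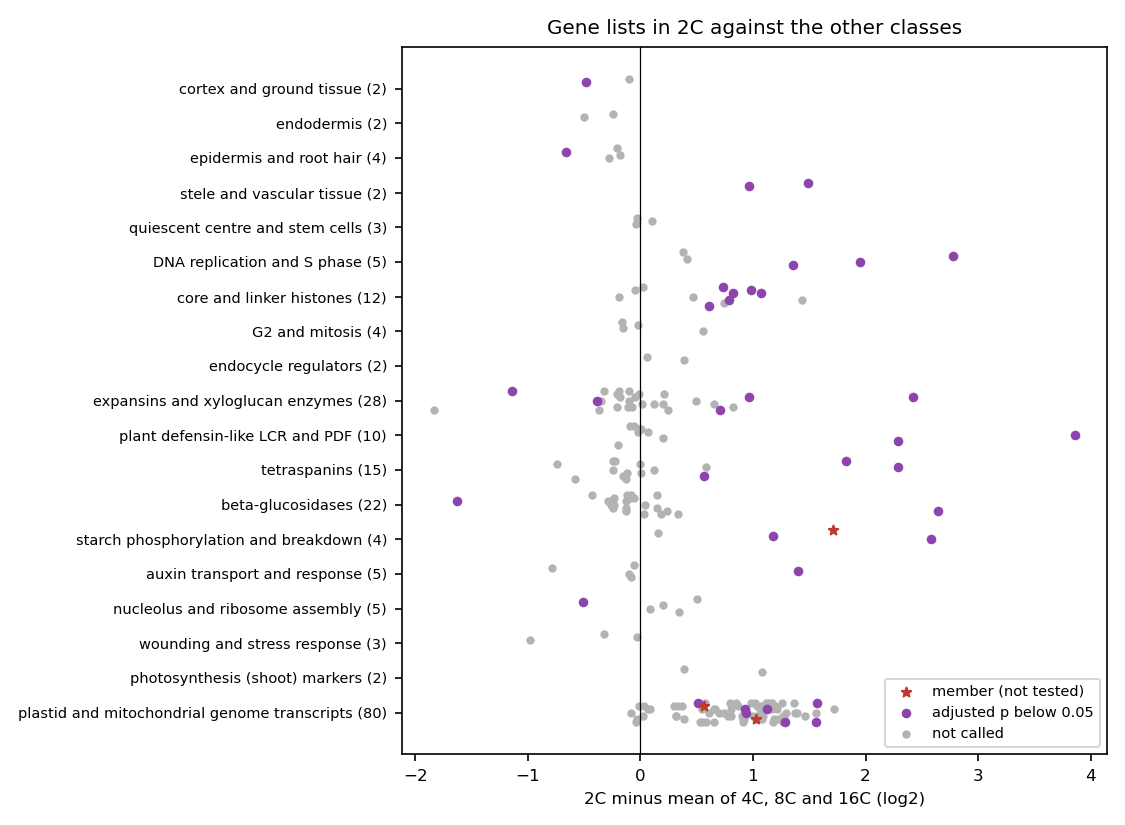
Each dot is a gene of 1 of the 19 lists with a measured gene, whose number stands in brackets, and the x axis gives 2C minus the mean of 4C, 8C and 16C (log2). Purple dots passed the limma test at an adjusted p of 0.05, grey dots did not, and red stars are members, whose values were used to choose them. Replication, histone and starch genes lie mostly right of 0, and so do both measured stele genes and both photosynthesis genes. Of 80 organelle genes, 76 lie right of 0 with few passing, and most other lists centre near 0.

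Markers of other root tissues were measured for only a few genes. Both measured markers of the stele, PHV and LHW, rose in 2C, by 1.49 ± 0.20 (SE, limma adjusted p = 0.00123) and by 0.97 ± 0.25 (limma adjusted p = 0.0254, and 0.111 and 0.066 without 2C replicate 1 or 2). The mean of their log2 signals per array was 7.70 to 8.31 in 2C, 7.13 to 7.78 at 4C, 5.79 to 6.48 at 8C and 6.63 to 6.92 at 16C. Of 2 cortex markers JKD fell by 0.48 (limma adjusted p = 0.00877) and the other, AT1G62500, did not pass. Of 4 markers of epidermis and root hairs GH9C1 fell by 0.66 (limma adjusted p = 0.0471), and 3 did not pass. That call was lost in 12 of 18 alternatives, with adjusted p-values up to 0.187. None of the 2 endodermis markers and 3 markers of the quiescent centre passed, and no columella marker was measured. The list name CO2 was not matched to a locus, so whether a measured gene stands for it was not settled. The part of other tissues in the members' signals was not tested.

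Of 5 technical measures, the one that passed the test between 2C and the rest was the actin 3' minus 5' difference. The difference between the 3' and 5' probe sets of actin, which grows as transcripts are shortened, was 4.55 ± 0.16 in 2C, 3.90 ± 0.11 at 4C, 3.42 ± 0.12 at 8C and 3.80 ± 0.17 at 16C (log2, SD, n = 3 each). All 2C arrays (4.38 to 4.70) lay above the 9 others (3.34 to 4.03), a difference of 0.85 (exact permutation test, two-sided, p = 0.00455, the smallest that 220 splits allow, and 0.0227 after Benjamini-Hochberg adjustment over 5 measures). The same difference for GAPDH ran the other way (-0.43), at 4.85 ± 0.38 in 2C, 5.20 ± 0.32 at 4C, 5.05 ± 0.17 at 8C and 5.58 ± 0.09 at 16C (exact permutation p = 0.0636, adjusted 0.0795). Poly-A control transcripts averaged 10.9 ± 0.52 in 2C, 10.5 ± 0.58 at 4C, 8.997 ± 1.08 at 8C and 8.94 ± 0.40 at 16C (exact permutation p = 0.0636, adjusted 0.0795). Hybridisation controls differed by -0.12 between 2C and the rest (exact permutation p = 0.377). Neither the actin difference nor the controls were tested for their part in the members' signals.

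Transcripts of the plastid and mitochondrial genomes bear on the mitochondrial members. The mean over the 80 measured organelle genes was 8.41, 6.90 and 7.69 in the 2C arrays, and 5.86 to 7.49 in the 9 others, so that the groups overlapped (difference 0.87, exact permutation p = 0.0591, adjusted 0.0795). Of the 80 genes, 76 were higher in 2C than in the other classes on average, 9 were called higher by limma (11.3%, against 9.32% of all probe sets) and none lower, with a median of 0.94 on the log2 scale. Of these 9, nad4L and matR are members. In 8 of the 80 (10.0%) all 2C arrays lay above the rest, against 3.48% of all single-gene probe sets, and the difference of these shares was not tested. In 69 2C replicate 1 was the highest 2C array. Among the called genes that are no members, nad5 was higher by 1.28 ± 0.20 (SE, limma adjusted p = 0.00267) and nad9 by 0.93 ± 0.15 (limma adjusted p = 0.00319). The nad5 value is from a probe set of the shared type. Another nad5 probe set, not of that type, was higher by 0.84 ± 0.18 (SE, limma adjusted p = 0.0103), and its 2C and other arrays overlapped. The part of the overall organelle level in the signals of nad4L, matR, orfX and ccb452 was not tested.

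**Figure D5:**
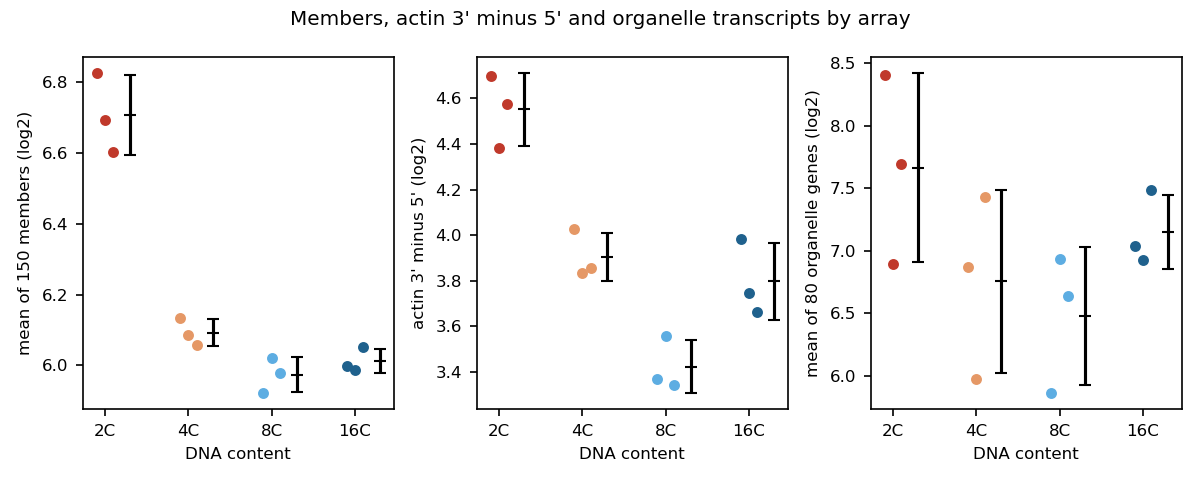
Dots are arrays by DNA content, with the class mean and SD (n = 3) beside them, for the mean of the 150 members, the actin 3' minus 5' difference and the mean of 80 organelle genes, all on the log2 scale. The 2C arrays lie above all others in the left and the middle panel (6.60 to 6.83 and 4.38 to 4.70), while in the right panel 2C replicate 2, at 6.90, lies within the range of the other classes.

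The deposited signals were put on one distribution by the submitters, and another scale changes which probe sets meet the rule. The mean of 8 reference genes was 7.36 ± 0.15 in 2C, 7.25 ± 0.17 at 4C, 7.03 ± 0.12 at 8C and 7.06 ± 0.06 at 16C (SD, n = 3 each). Scaled to them, the median of all probe sets moved by -0.24 on the log2 scale to the disadvantage of 2C, 89 probe sets met the rule in place of 257, and 39 of the 150 members did. The median difference between 2C and the mean of the other classes over the 150 was 0.39, against 0.63 on the deposited scale. Among the 39 were PWD, AT4G26370, ZYP1b, ATG8B, RECQI1, nad4L, FDH, RD2 and BRL1. A member could fail the rule under 12 alternatives, which were both other scales, a limit of 0.3 and the omission of an array of 4C, 8C or 16C. In each of the 12 the rule was met by 22 members, among them PWD, ZYP1b, RECQI1, nad4L, RD2 and BRL1. In each of the 11 other than the reference genes it was met by 89 members.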

How the data were processed

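Nuclear RNA of 4 classes of root cortex nuclei was measured on ATH1 arrays, 3 per class. The deposited table holds a log2 signal per probe set, computed with RMA per the submitters' processing notes. RMA subtracts background, gives all arrays one distribution and combines each set's probes. Its version is not given in the sources used here. A change in total RNA per nucleus cannot be seen in such values, and the number of arrays limits their precision.

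Genes were named through the platform's table, with symbols brought up to date from a TAIR10.1 table, where 13436 of 13513 single-gene probe sets were found by Entrez ID. Another 503 probe sets name several genes and 8730 none, and none of these was named. The fit excluded 64 control probe sets. limma 3.58.1 in R 4.3.3 fitted the 4 class means over 12 arrays without a block. Its test was checked on simulated data. Quality measures were compared by exact permutation tests. The list loci AT3G15460 and AT1G06760 were matched by a hand-written alias. A list gene with several single-gene probe sets entered its list with the one of the highest mean signal.

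Members and lists were chosen with earlier results of these data known. The genes named are the 15 members with the widest gap, every member with a symbol, those nearest the limits, those with the widest and narrowest 2C SD, those in a list, those beside another member or with a second probe set, and up to 2 called genes per list. The other ATG8 and RecQ genes and the second PWD gene were added after the members were seen. Alternatives were a block, an intensity trend, array weights, a filter on dim probe sets, cyclic loess, reference genes, other limits, probe set types, a minimum change of 2-fold and the omission of single arrays. No genome or sequence table was used, so no promoter or protein sequence is shown and no motif was searched.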

Additional observations from a re-analysis of the deposited data

How the results depend on the processing

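Of 2100 recomputed gaps (150 under 14 alternatives), 127 moved by more than the 2C SD. The sign of a gap cannot turn when an array is left out, by the choice of the members. The number of probe sets meeting the rule (257) was 213 with a limit of 0.3, 296 with 0.5, 245 after cyclic loess and 89 scaled to reference genes. It was 265 to 645 with an array left out, of which 441 was without 2C replicate 2 and 645 without 2C replicate 3. Without a 2C array no member can fail the rule, and 101, 100 and 71 (without replicate 1, 2 and 3) stayed among the 150 with the widest gap. Without an array of another class 132 to 147 met it. The count called higher (2121) was 1183 scaled to reference genes, 700 with a minimum of 1 on the log2 scale and 1354 to 2501 with an array left out, lowest without 2C replicate 1. The count called lower (1536) was 4830, 527 and 990 to 1650 in the same order, lowest without 2C replicate 1 and 1016 without 2C replicate 2. Scaling to reference genes shifts all 2C values down together, and the cause of the other changes was not tested. With the replicate number as a block the counts were 2153 and 1564. The labels give no pairing by replicate number, and 9 of 18 same-numbered pairs had deviations correlated above 0.1, so the block is given only here. For replicates 2 and 3 the 6 pairs among 2C, 4C and 16C correlated at 0.23 to 0.49 and the 6 pairs with 8C at -0.49 to -0.16. Whether the numbers pair part of the classes was not settled, and 6 of 12 arrays correlated best with their own number. With an array left out, chosen after seeing the data, the actin difference was 0.77 to 0.93, GAPDH -0.57 to -0.22, the poly-A controls 1.09 to 1.57, the hybridisation controls -0.16 to -0.07 and the organelle mean 0.50 to 1.26. Unadjusted exact permutation p-values fell below 0.05 for GAPDH without 2C replicate 1 (0.0364) or 8C replicate 1 (0.0424), the poly-A controls without 4C replicate 1 (0.0242) or 2 (0.0424), and the organelle mean without 2C replicate 2 (0.0364). With the second probe set design, also chosen after seeing the data, the actin difference was 0.68 (exact permutation p = 0.00455) and that of GAPDH -0.04 (p = 0.664). Arrays give no counts, and 33 members whose 2C mean lay below the median signal are the least sure.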
